A study of Mus musculus with 4 samples.

Results

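The integrin and laminin chain genes are the genes whose symbols name an integrin α chain, an integrin β chain or a laminin α, β or γ chain, the integrin αE gene Itgae left out. The 35 described here are among the 43346 genes in the deposited table, and the rule that picks them uses their names and no measured value. Of the 35, 6 encode leukocyte integrin chains (Itgad, Itgal, Itgam, Itgax, Itgb2 and Itgb7), 19 other integrin chains and 10 laminin chains. Polyadenylated RNA of lung cells labelled as epithelial was sequenced from mice carrying a transgene that over-expresses IL-33, and from controls. There were 2 libraries of each genotype, B and E (transgenic) and D and F (control). The genotype is the only trait labelled, and the strain, age, sex, transgene promoter and number of mice per library were not stated in the sources used here. The p-values below therefore measure the spread between these libraries, and how much of it lies between mice is not known. IL-33, a relative of IL-1, is a signal that damaged barrier cells release to immune cells. The design asks what the transgene does to gene expression in these cells.

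Integrins are receptors made of 1 α and 1 β chain that tie cells to the matrix or to other cells and that signal in both directions through talin and kindlin proteins bound to the β tail. Those with the β2 chain are found on leukocytes and bind ICAM proteins on vessel walls and epithelium, while β1 integrins occur on nearly all cells and bind collagens, laminins and fibronectin. Laminins are trimers of an α, a β and a γ chain that form the sheet of the basement membrane under epithelium and endothelium. In the lung the α5 chain is found in most basement membranes, the α3 and β3 chains occur together under epithelium, and the α4 and α2 chains are typical of vessels, muscle and other mesenchymal cells.

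The libraries held between 76120696 (B) and 87723745 (E) gene counts. The transgene's gene Il33 stood at 1723 CPM in B and 874 in E, against 117 in D and 108 in F on the scale of counts per 1000000 with TMM scaling (CPM), which goes with the labels. On the first principal component of all genes tested, which took 54.1% of the variance, transgenic B stood apart at -53.4, with control D at -4.19, E at 27 and F at 30.6, and the second (30.5%) set D apart from the other libraries. The share of Y-linked counts, relative to the library with the highest share (D), was 47.5% in F, 9.11% in E and 0.551% in B. It was lower in both transgenic libraries and also differed between the libraries of each genotype. Sex was not labelled, and a difference in the sex of the mice cannot be told apart from genotype here. Epithelial RNA was present: Epcam stood at 164 CPM in B and 115 in E, against 148 in D and 109.8 in F. Sftpc, of alveolar type 2 cells, was at 20036 CPM or more. The libraries also held vessel and stromal RNA: the endothelial gene Pecam1 was at 824 CPM in B and 1247 in E, against 1002 in D and 1327 in F. Pecam1 lay above Epcam and below Sftpc in each library, so the RNA was not of epithelial cells alone. Basal cell markers were near 0, the 4 listed genes summing to at most 3.31 CPM in any library.

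No integrin or laminin chain gene passed the test between transgenic and control libraries. All 35 had enough counts to be tested. The quasi-likelihood test of edgeR called 0 of them at an adjusted p of 0.05, against 0% of the 20872 genes tested in either direction. Il33 itself was not called, at a fitted log2 fold change of 3.53 with SE 0.37. Its unadjusted p of 0.000206 (edgeR quasi-likelihood) was the smallest of all genes tested. A gene not called here is therefore not shown to be unchanged. At an unadjusted p under 0.05 there were 0 members, beside 0.896% of all genes higher and 0.393% lower, in this fit. DESeq2 and limma-voom also called 0 members at an adjusted p of 0.05, while their unadjusted p was 0.00983 (DESeq2) and 0.0407 (limma-voom) for Itgam and 0.0464 (DESeq2) for Itgal. For Itgam the edgeR fit without the legacy setting gave an unadjusted p of 0.0492, and that without a filter on low counts 0.020. The share of all genes at an unadjusted p under 0.05 was not counted for these alternatives. The smallest p among the members in the edgeR fit described first was 0.0522, that of Itgam (edgeR quasi-likelihood, adjusted p = 1.0). In 2 members both transgenic libraries lay above both controls (Itgam and Itga9), beside 11.9% of all genes, and in 1 both lay below (Itga11), beside 12% of all genes. In 25 of the 35 the difference between the group means was smaller than the difference between the libraries of each group, a pattern found in 53.1% of all genes. By library, 20 of the 35 were lowest in B (33.9% of all genes), 10 in D (21.9%), 4 in F (24%) and 1 in E (20.3%). Of the same 35, 18 were highest in E (19.5% of all genes), 11 in F (25.7%), 4 in B (33.7%) and 2 in D (21.2%).

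**Figure D1:**
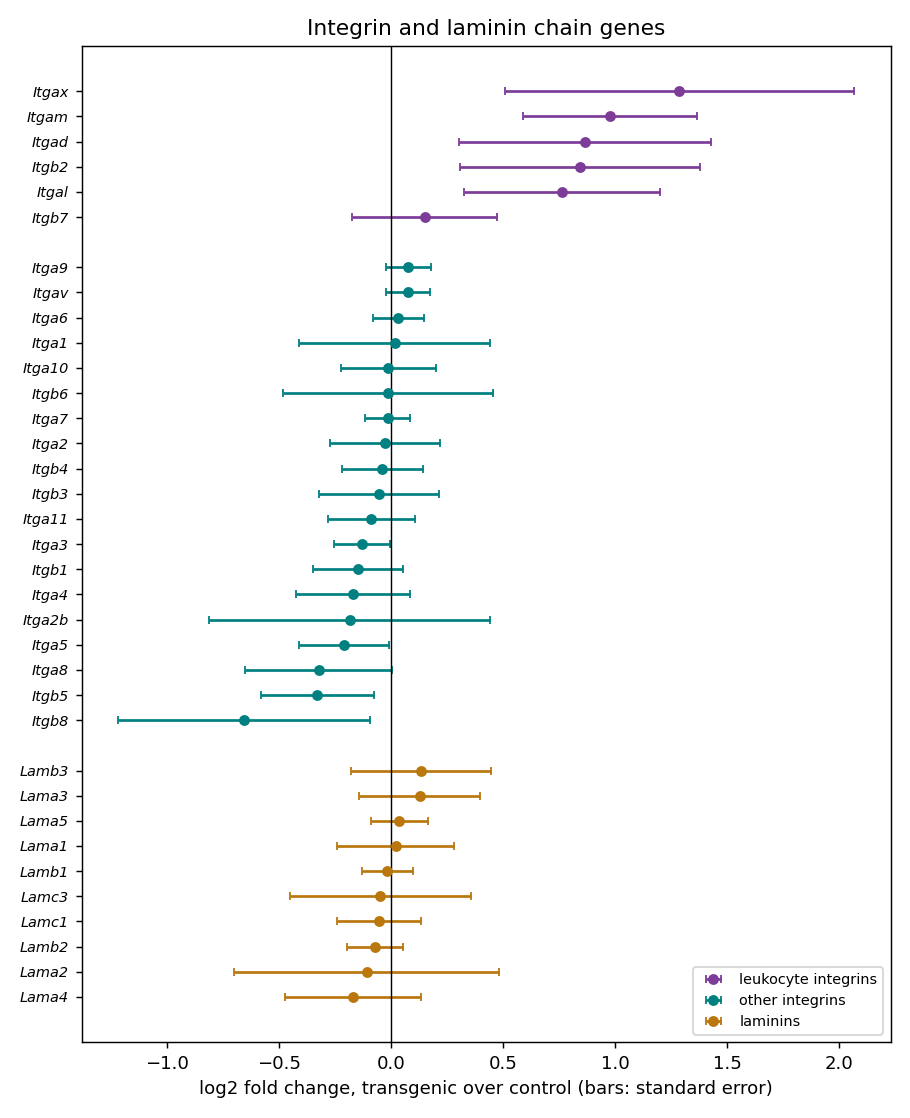
Log2 fold change of transgenic over control libraries (x axis, bars are standard errors) for each of the 35 genes (y axis), in 3 groups. The 6 leukocyte integrins have values from 0.15 to 1.29, the other integrins from -0.65 to 0.08, and the laminins from -0.17 to 0.14.

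The leukocyte integrin genes had the highest log2 fold changes of the 35, and none passed the test. All 6 had a log2 fold change above 0, with a median of 0.85 beside -0.0013 over all genes tested. All 6 were highest in transgenic library E and lowest in control library D. The β2 chain gene Itgb2 (chromosome 10, 77530252 to 77565708, GRCm38), the shared partner of the αL, αM, αX and αD chains, was measured at 12 CPM in B and 23.4 in E, against 5.48 in D and 14.3 in F (fitted log2 fold change 0.84 with SE 0.54). Its transgenic library B lay below control library F, so the groups overlapped.

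The 4 partner chains are encoded on chromosome 7, where Itgam (128062640 to 128128160), Itgax (128129547 to 128150656) and Itgad (128154376 to 128223816) lie side by side and Itgal (127296260 to 127335137) stands apart. Itgal, whose αL chain forms the lymphocyte receptor LFA-1 with β2, was at 12.7 CPM in B and 24 in E, against 7.22 in D and 14.4 in F (fitted log2 fold change 0.76 with SE 0.44). Itgam, the αM chain of the neutrophil and macrophage receptor Mac-1, was at 4.49 CPM in B and 6.57 in E, against 1.91 in D and 3.70 in F (fitted log2 fold change 0.98 with SE 0.39). It was the only leukocyte integrin whose groups did not overlap, F lying just under B. Itgax, the αX chain (CD11c) of dendritic cells and alveolar macrophages, was at 6.54 CPM in B and 14.5 in E, against 1.5 in D and 7.13 in F (fitted log2 fold change 1.29 with SE 0.78), with a 9.67-fold range over the libraries, the widest of the 35 genes. The groups overlapped for Itgax, since F lay above B. Itgad, the αD chain, was scarce, with 31 counts in B and 97 in E, against 27 in D and 42 in F (fitted log2 fold change 0.87 with SE 0.56), and 1.55% of its exonic bases overlap Cox6a2 on the other strand. Itgb7, which pairs with α4 on lymphocytes that home to the gut, was at 3.60 CPM in B and 5.70 in E, against 3.37 in D and 5.0 in F (fitted log2 fold change 0.15 with SE 0.32), the value nearest 0 of the group.

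**Figure D2:**
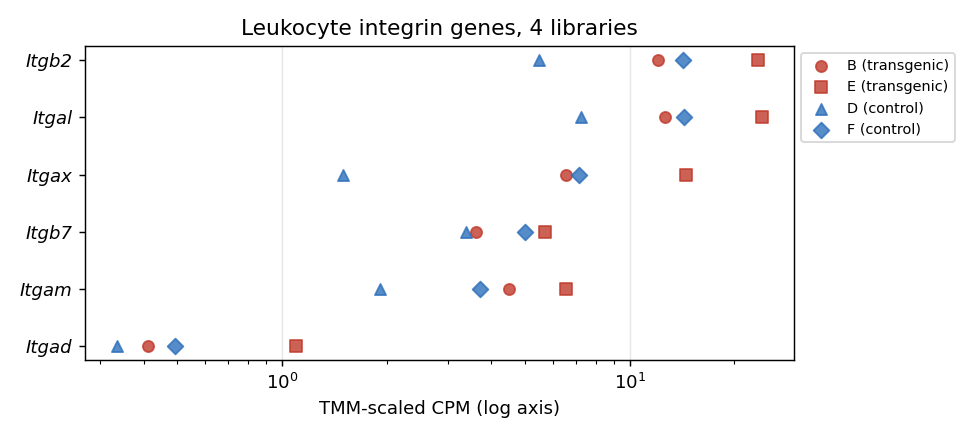
TMM-scaled CPM (x axis, log scale) of the 6 leukocyte integrin genes (y axis), 1 point per library, red for transgenic and blue for control. Library E is rightmost and D leftmost in all 6, while F lies right of B in all but Itgam.

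The RefSeq promoter table (GRCm38.p6) held 23 of the 35 genes and 3 of the leukocyte integrins, Itgam, Itgax and Itgb7. Their 250 bases before the annotated start are shown because these genes had the same highest and lowest library, and because PU.1, a transcription factor of myeloid and B cells, is known to act at leukocyte integrin promoters. Each is written 5′ to 3′ along the gene, with matches to the PU.1 core GAGGAA on either strand (TTCCTC where the match is on the other strand) in capitals. The windows are chr7:128062390-128062639 on the plus strand for Itgam, chr7:128129300-128129549 on the plus strand for Itgax and chr15:102231936-102232185 on the minus strand for Itgb7.
Itgam: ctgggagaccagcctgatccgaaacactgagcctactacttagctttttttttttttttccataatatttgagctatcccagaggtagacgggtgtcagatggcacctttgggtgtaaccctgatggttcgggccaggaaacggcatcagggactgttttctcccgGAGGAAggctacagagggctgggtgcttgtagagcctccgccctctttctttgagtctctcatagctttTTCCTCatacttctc
Itgax: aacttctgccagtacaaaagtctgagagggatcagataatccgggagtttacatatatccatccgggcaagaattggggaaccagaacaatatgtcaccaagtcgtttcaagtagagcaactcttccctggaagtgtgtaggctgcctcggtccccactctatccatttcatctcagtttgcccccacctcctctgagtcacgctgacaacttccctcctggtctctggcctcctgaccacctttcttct
Itgb7: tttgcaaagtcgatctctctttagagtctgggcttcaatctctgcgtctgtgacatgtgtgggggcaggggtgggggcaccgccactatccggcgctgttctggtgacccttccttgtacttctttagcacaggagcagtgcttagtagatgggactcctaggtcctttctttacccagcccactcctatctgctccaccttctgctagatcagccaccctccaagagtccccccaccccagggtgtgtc
The Itgam window held 2 matches, 1 on each strand, beginning 84 and 15 bases before the start, and the windows of Itgax and Itgb7 held 0. Of all 32851 promoter windows of this length, 23.3% held at least 1 match, as did 13 of the 26 windows of the 23 member genes. Among those 13, that of Itgam was the only leukocyte integrin window, the rest being of other integrins and laminins. A match of letters is a description and shows no binding.

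Leukocyte marker genes shared their highest and lowest library with these integrins. All 9 listed were highest in E (19.5% of all genes) and lowest in D (21.9%), and none was at 0. In 8 of the 9 B also lay above F, so that both transgenic libraries were above both controls (11.9% of all genes), whereas among the leukocyte integrins this held for Itgam alone. Their sum was 365 CPM in B and 427 in E, against 295 in D and 342 in F, of which the actin-bundling protein gene Lcp1 made up most. Ptprc, which encodes CD45 and is expressed by nearly all white blood cells, was at 20.6 CPM in B and 30 in E, against 8.21 in D and 16.5 in F. The summed markers of alveolar macrophages were 52.7 CPM in B and 127 in E, against 20 in D and 76.4 in F, the same order as for Itgax, and 2 of the 6 had both transgenic libraries above both controls. The 7 neutrophil markers, all 7 of them separated in that way, summed to 16.3 CPM in B and 28.7 in E, against 8.50 in D and 10.5 in F. T cell markers, 4 of 6 separated in that way, summed to 6.95 CPM in B and 6.34 in E, against 3.13 in D and 3.44 in F, highest in B and not in E. The part of these cells in the integrin values was not tested. In bulk RNA, fewer cells of a type and less RNA per cell cannot be told apart. Set against Ptprc in the same library, a ratio chosen after the values were seen, Itgam was 21.8% in B and 21.9% in E, against 23.3% in D and 22.4% in F, so that it was slightly lower in both transgenic libraries. Itgal against Ptprc was 61.4% in B and 79.8% in E, against 87.9% in D and 86.8% in F, also lower in both. The same ratio for Itgb7 was 17.5% in B and 19% in E, against 41.1% in D and 30.2% in F, lower in both transgenic libraries. For Itgax it was 31.7% in B and 48.3% in E, against 18.3% in D and 43.1% in F, for Itgb2 58.3% in B and 77.8% in E, against 66.8% in D and 86.2% in F, and for Itgad 1.99% in B and 3.64% in E, against 4.08% in D and 2.98% in F. In these 3 the groups overlapped. Ptprc was itself higher in both transgenic libraries, so a gene that differed less than Ptprc tends to come out lower by this ratio. The ratio was not taken over all genes.

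The direction turned for 5 of the 6 leukocyte integrins when the Y-linked share entered the fit. That fit left 1 residual degree of freedom. Since the share was lower in both transgenic libraries, the fit separates it poorly from genotype. Its log2 fold changes were -0.03 for Itgam, -0.22 for Itgal, -0.89 for Itgax, -0.54 for Itgb2, -0.40 for Itgb7 and 0.48 for Itgad. The median of the 6 was -0.31, beside -0.018 over all genes tested. Without library E the median was 0.25, without D 0.46, without F 1.44, and without B 1.24.

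Within each library the reads per kilobase of the 4 α partners of β2 were also taken as shares, which do not depend on how libraries are scaled. Itgal took 45.2% in B and 43.6% in E, against 60.3% in D and 47.9% in F, the largest share in each library and lower in both transgenic ones. Itgax took 36.8% in B and 41.7% in E, against 19.8% in D and 37.5% in F, with D alone far below the others. Among all 8 β chains Itgb2 took 1.29% in B and 1.93% in E, against 0.504% in D and 1.12% in F, higher in both transgenic libraries. With 2 libraries against 2 an exact two-sided permutation test cannot go below 0.333, the value found for the Itgal and Itgb2 shares, so neither difference could pass the threshold.

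None of the other integrin genes passed the test between genotypes. Of the 19, 4 had log2 fold changes above 0 and 15 below, with a median of -0.05. Library B was the lowest of the 4 for 13 of the 19, beside 33.9% of all genes. Their median was -0.35 without library E, -0.24 without D, 0.07 without F and 0.03 without B.

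Itgb1, the β1 chain shared by most matrix receptors, was by far the most abundant integrin chain per length, at 270.5 CPM per kilobase in B and 349 in E, against 319 in D and 366 in F. It made up 88.2% in B and 88% in E, against 89.3% in D and 88.2% in F of all β chain reads per kilobase, and its log2 fold change was -0.15 with SE 0.20. Transgenic library B was the lowest for Itgb1 and control library F the highest, with E above D, so the groups overlapped. Next among these integrins came Itga3, the α3 chain of a laminin receptor of epithelium, at 42.3 CPM per kilobase in B and 48.1 in E, against 47.9 in D and 50.8 in F (fitted log2 fold change -0.13 with SE 0.13). Its E and D values were nearly equal, and only B stood lower.

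The fibronectin receptor chain gene Itga5 was at 25.5 CPM per kilobase in B and 36.9 in E, against 34 in D and 38.2 in F (fitted log2 fold change -0.21 with SE 0.20). The collagen receptor chain gene Itga1 was at 17 CPM per kilobase in B and 37.4 in E, against 20.6 in D and 33.3 in F (fitted log2 fold change 0.02 with SE 0.43). Both genes were lowest in B, and Itga1 was 2.20-fold higher in E than in B and 1.62-fold higher in F than in D, while its group means were nearly equal. Itga2, of the other widely expressed collagen receptor, was at 17.5 CPM per kilobase in B and 26.4 in E, against 19.1 in D and 25.6 in F (fitted log2 fold change -0.03 with SE 0.25). Itga8, which binds nephronectin and marks mesenchymal cells, was at 11.6 CPM per kilobase in B and 18.6 in E, against 14.2 in D and 23.6 in F (fitted log2 fold change -0.32 with SE 0.33), again with E and F above D and B. The α4 chain gene Itga4, used by leukocytes and by other cells, did not follow the leukocyte integrins, at 53.5 CPM in B and 82.9 in E, against 65.6 in D and 87.7 in F. It was lowest in B and highest in F, and 8.04% of its exonic bases overlap Cerkl on the other strand.

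A few chains were nearly level over all libraries. Itga9, a tenascin and VCAM-1 receptor chain, was at 174 CPM in B and 173 in E, against 162 in D and 167 in F (fitted log2 fold change 0.08 with SE 0.10), the only one of the 19 with both transgenic libraries above both controls, by a small margin. Itga11, a fibroblast collagen receptor chain, was at 2.71 CPM in B and 2.57 in E, against 2.84 in D and 2.77 in F (fitted log2 fold change -0.09 with SE 0.20), both transgenic libraries just below the controls. The laminin receptor chains Itga6 and Itga7 varied 1.13-fold and 1.09-fold between the highest and lowest library, and Itgav, the αv chain, 1.12-fold. Itga10, a cartilage collagen receptor chain, was near 0.966 CPM per kilobase on average and varied 1.26-fold.

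The β partners of αv differed in how they varied. Itgb5 had the smallest p of the 19 (0.248, edgeR quasi-likelihood, adjusted p = 1.0) and was at 42.8 CPM in B and 64.8 in E, against 57.2 in D and 77.9 in F (fitted log2 fold change -0.33 with SE 0.25), with E above D. Itgb8, whose αvβ8 receptor activates TGF-β, was scarce, at 0.821 CPM in B and 2.22 in E, against 1.68 in D and 3.13 in F (fitted log2 fold change -0.65 with SE 0.56), with 62 counts in B. Itgb6, whose αvβ6 receptor activates TGF-β on epithelium, ran the other way, at 40.8 CPM in B and 23 in E, against 45 in D and 19.3 in F (fitted log2 fold change -0.01 with SE 0.47). It was 1.78-fold higher in B than in E and 2.33-fold higher in D than in F. Itgb4, the epithelial β4 partner of α6, was at 54.6 CPM in B and 55 in E, against 46.6 in D and 65.9 in F (fitted log2 fold change -0.04 with SE 0.18), nearly equal in the transgenic libraries, with the controls on either side.

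Itga2b and Itgb3 encode the fibrinogen receptor of platelets, and β3 also pairs with αv on other cells. Itga2b was at 7.5 CPM in B and 20.9 in E, against 9.07 in D and 23.2 in F (fitted log2 fold change -0.18 with SE 0.63), and Itgb3 at 26.4 CPM in B and 41.6 in E, against 29.8 in D and 40.8 in F (fitted log2 fold change -0.05 with SE 0.27). In both genes E and F lay above B and D. The 7 platelet markers summed to 14.8 CPM in B and 41.7 in E, against 21 in D and 44.2 in F, with the same split of the libraries, none of them at 0.

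**Figure D3:**
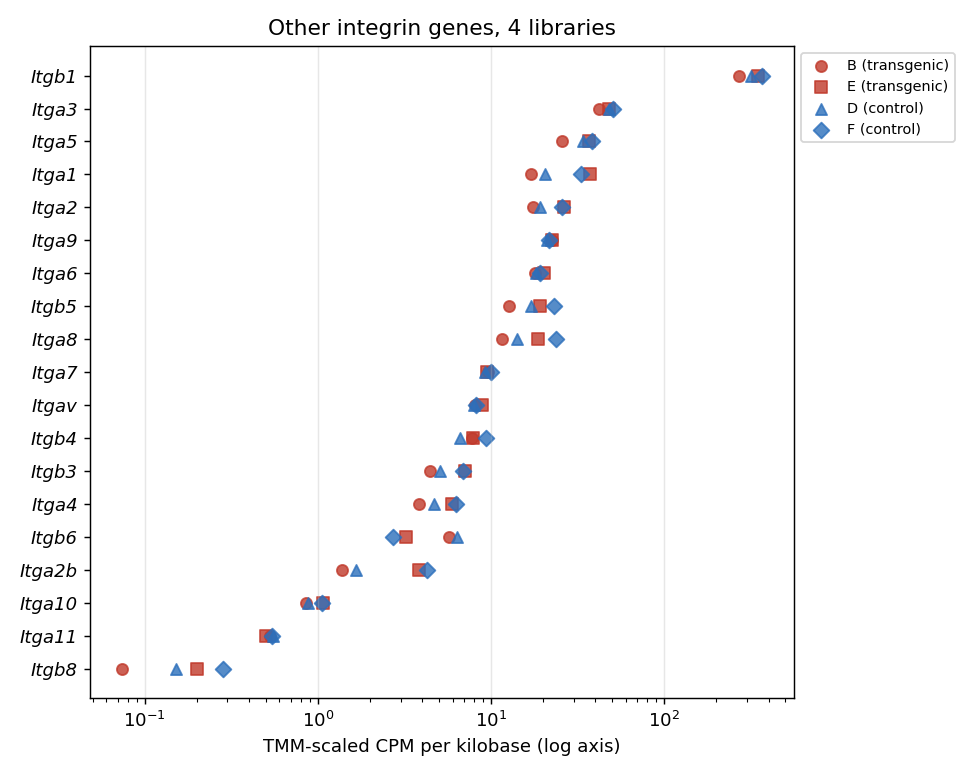
TMM-scaled CPM per kilobase (x axis, log scale) of the 19 other integrin genes (y axis, ordered by mean), 1 point per library, red for transgenic and blue for control. Itgb1 averages 326 and Itgb8 0.178, and in nearly all rows the red and blue points mix, with Itgb6 the row where B and D lie right of E and F.

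With TMM scaling the laminin chain genes did not separate the genotypes: 0 of 10 were higher (11.9% of all genes) or lower (12%) in both transgenic libraries. Their log2 fold changes had a median of -0.03, with 4 above 0 and 6 below. For each of the 10 the sign turned when at least 1 of the libraries was left out, and the median was -0.21 without E, -0.12 without D, 0.08 without B and 0.03 without F. In 9 of the 10 the group means differed by less than the libraries within each group did, beside 53.1% of all genes.

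The most abundant laminin chain per length was Lamc1, the γ1 chain of most trimers, at 70.1 CPM per kilobase in B and 90.8 in E, against 77.6 in D and 89.3 in F (fitted log2 fold change -0.05 with SE 0.19). Lama5, the α5 chain, was at 50.5 CPM per kilobase in B and 49.6 in E, against 50 in D and 47.4 in F (fitted log2 fold change 0.04 with SE 0.13), the steadiest of the 35 genes, with a 1.06-fold range. Lamb2 was at 45.4 CPM per kilobase in B and 50.8 in E, against 49.1 in D and 52 in F (fitted log2 fold change -0.07 with SE 0.12), and it had the smallest p of the 10 (0.589, edgeR quasi-likelihood, adjusted p = 1.0). Lamb1, the β1 chain, varied 1.09-fold around a mean of 25.6 CPM per kilobase. Mean levels of Lama5 and Lamb2 were nearly equal, and their library values overlapped.

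The α3 and β3 chains of epithelial basement membranes varied together between libraries of the same genotype. Lama3 was at 325 CPM in B and 227 in E, against 305 in D and 201 in F (fitted log2 fold change 0.13 with SE 0.27). Lamb3 (chromosome 1, 193207699 to 193343878) was at 268 CPM in B and 177 in E, against 252 in D and 153 in F (fitted log2 fold change 0.14 with SE 0.31). In both, transgenic B and control D stood above transgenic E and control F. The ratio of B to E was 1.43 for Lama3 and 1.52 for Lamb3, and that of D to F was 1.52 and 1.65. Itgb6 had the same split of the libraries. Alveolar type 1 cell markers summed to 2517 CPM in B and 1959 in E, against 2695 in D and 2022 in F, and epithelial markers to 1625 CPM in B and 1088 in E, against 1359 in D and 1075 in F, both with B and D above E and F. Within the type 1 list Ager was at 1185 CPM in B and 685 in E, against 1192 in D and 606 in F, and Emp2 did not share the split, at 957 CPM in B and 1019 in E, against 1082 in D and 1184 in F. Their part in the laminin values was not tested.

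The mesenchymal and vascular chains ran the opposite way. Lama2, the α2 chain of muscle and mesenchyme, was at 25.9 CPM in B and 74.6 in E, against 34.3 in D and 74.1 in F (fitted log2 fold change -0.11 with SE 0.59), the widest range of the laminins (2.88-fold). Lama4, the α4 chain of vessels, was at 84.8 CPM in B and 151 in E, against 114 in D and 151 in F (fitted log2 fold change -0.17 with SE 0.30). In both, E and F were nearly equal and lay above D and B. Lamc3 and Lama1 were the scarcest, at 1.52 and 1.14 CPM per kilobase on average, and had the same order of libraries as Lama2. Endothelial markers summed to 4321 CPM in B and 6798 in E, against 5636 in D and 7417 in F, and fibroblast markers to 949 CPM in B and 2236 in E, against 1606 in D and 2598 in F. Both sums were highest in F and lowest in B, and their part in the laminin values was not tested.

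**Figure D4:**
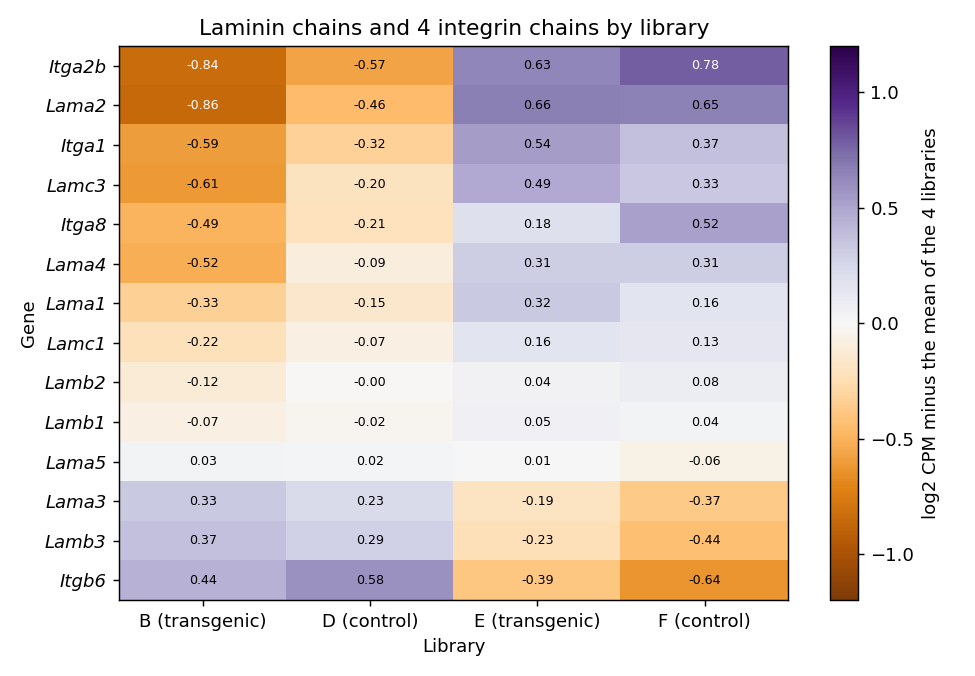
Log2 CPM minus the mean of the 4 libraries (colour and printed value) for the 10 laminin chains and for Itgb6, Itga1, Itga8 and Itga2b (rows), by library (columns, ordered B, D, E, F). Lama3, Lamb3 and Itgb6 are above their mean in B and D, Lama5 is level, and Itga2b and Lama2 are above their mean in E and F.

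The make-up of the laminin α and β chains was also taken as shares within each library. Of the α chain reads per kilobase, Lama5 held 55.9% in B and 55.6% in E, against 55% in D and 56.2% in F, a nearly fixed share. Lama3 held 33.5% in B and 23.7% in E, against 31.2% in D and 22.1% in F, and Lama4 held 7.79% in B and 14% in E, against 10.4% in D and 14.8% in F. Where the Lama3 share was lower, in E and F, the Lama4 and Lama2 shares were higher. Shares in a library add to a fixed total, so with Lama5 nearly level a lower Lama3 share must be met by others. Lamb3 held 36.7% in B and 25.7% in E, against 33.9% in D and 22.8% in F of the β chains. For all 8 of these shares the groups overlapped (exact two-sided permutation p between 0.667 and 1).

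**Figure D5:**
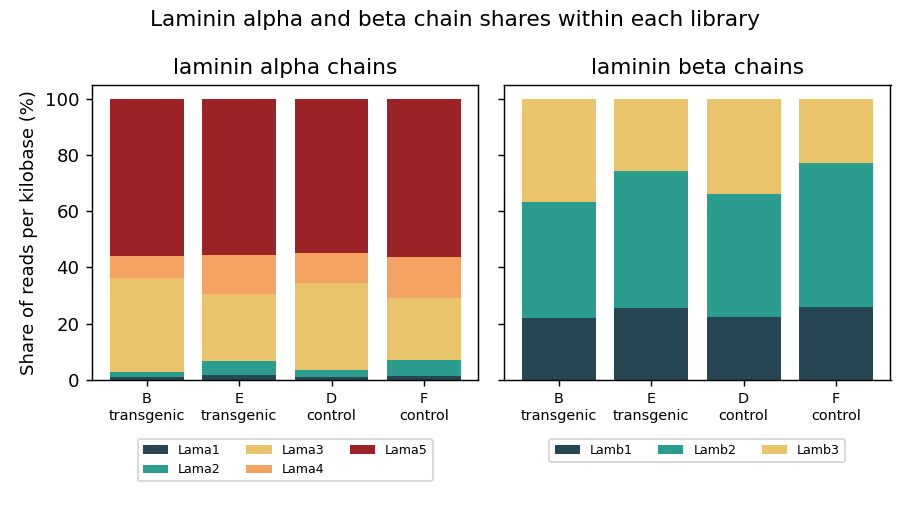
Share of reads per kilobase (y axis, percent) of each laminin chain within the α and the β chains, 1 bar per library (x axis). Lamb3 takes 36.7% and 33.9% in B and D and 25.7% and 22.8% in E and F, while Lama5 stays between 55% and 56.2%.

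Other genes of the pathway did not pass the test either. Of 18 cytoplasmic adhesion proteins 0 were called (edgeR quasi-likelihood, 0 at an unadjusted p under 0.05), 6 lying above 0 and 12 below, with a median of -0.08. In 1 both transgenic libraries lay above both controls (11.9% of all genes) and in 2 below (12%), the latter being Ilk, encoding integrin-linked kinase, at 99.4 CPM in B and 109 in E, against 109.7 in D and 109.7 in F, and Pxn, encoding paxillin, at 195 CPM in B and 202 in E, against 207 in D and 208 in F. The one above was Ptk2b, a kinase related to focal adhesion kinase, at 11.9 CPM in B and 13.4 in E, against 7.71 in D and 11.8 in F (fitted log2 fold change 0.38 with SE 0.24). Bcar1, a docking protein of focal adhesions, was at 59.3 CPM in B and 73.7 in E, against 79.6 in D and 73.3 in F (fitted log2 fold change -0.20 with SE 0.14). Zyx, encoding the focal adhesion protein zyxin, was at 78.6 CPM in B and 111 in E, against 103 in D and 121 in F (fitted log2 fold change -0.24 with SE 0.19). For both, the groups overlapped, with B the lowest. The kindlin of blood cells, Fermt3, named after its values were seen, was at 6.50 CPM in B and 15.2 in E, against 6.70 in D and 12.2 in F, with the groups overlapping.

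Of 13 basement membrane partners and laminin receptors 0 were called, with a median of -0.04. In 0 of them did both transgenic libraries lie above (11.9% of all genes) or below (12%) both controls. The smallest p belonged to Agrn, encoding the laminin-binding protein agrin, at 697 CPM in B and 731 in E, against 834 in D and 716 in F (fitted log2 fold change -0.12 with SE 0.15). Nid2, of the nidogens that bind laminin, was at 51.6 CPM in B and 82.2 in E, against 70.6 in D and 81.4 in F (fitted log2 fold change -0.18 with SE 0.24). Hspg2, encoding perlecan, was at 594 CPM in B and 867 in E, against 752 in D and 874 in F (fitted log2 fold change -0.15 with SE 0.23). In all 3 library B was the lowest, and the groups overlapped. The type IV collagen genes showed both patterns of the laminins, named after their values were seen. Col4a3, of the network found in alveolar basement membranes, was at 205 CPM in B and 128 in E, against 212 in D and 96.9 in F, with B and D above E and F as for Lamb3. Col4a1, of the network found in nearly all basement membranes, was at 3634 CPM in B and 5509.5 in E, against 4459 in D and 5517 in F, lowest in B as for Lama4.

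Of 12 integrin ligands 11 could be tested and 0 were called, with a median of 0.02. Vcam1 encodes a vessel wall ligand of α4 and α9 integrins. It was at 7.36 CPM in B and 10.2 in E, against 11.2 in D and 12.9 in F. Its fitted log2 fold change was -0.46 with SE 0.21. Among the 11 it was the only gene lower in both transgenic libraries (12% of all genes), and 0 were higher in both (11.9%). Spp1, encoding osteopontin, was at 12.7 CPM in B and 30.4 in E, against 6.04 in D and 18 in F (fitted log2 fold change 0.84 with SE 0.63), with D lowest and E highest as for the leukocyte integrins. Icam2, an endothelial ligand of αLβ2, was at 127 CPM in B and 203 in E, against 175 in D and 224 in F (fitted log2 fold change -0.27 with SE 0.26), with the groups overlapping. Madcam1, the gut ligand of α4β7, was too scarce to be tested.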

How the data were processed

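Polyadenylated RNA of 2 transgenic and 2 control libraries was measured. The submitters' processing notes name TopHat2 (version 2), Bowtie (1) and featureCounts (1), with the builds mm10 and GRCm38. No source used here gives the annotation release, the strand setting or how multi-mapped reads were counted, so genes that overlap may share reads. The coordinates of 25 of the 35 members equal those of GENCODE M21, so overlaps in that release may differ from those of the gene models counted. In that release 8 members shared exonic bases with a gene on the other strand. The share was 8.04% for Itga4, 7.66% for Itgb4, 6.27% for Lamc3, 5.90% for Itgav and 5.05% for Itga8. It was 1.83% for Lama3, 1.55% for Itgad and 0.111% for Itga7. Per the file headers, the authors deposited whole-number counts per gene, an RPKM value beside each, coordinates and a coding length, of which 38.1% were multiples of 3. The deposited RPKM used totals of which the gene counts made up 80.3% to 82.7%, and it served only as an alternative for the shares. Reads per kilobase here use that length.

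Genes passing filterByExpr (count of 10, total of 15) numbered 20872, and TMM factors scaled the libraries. Transgenic and control libraries were compared by the quasi-likelihood test of edgeR 4.0.16 in its legacy setting (under R 4.3.3) with no covariate, adjusted over all genes by Benjamini-Hochberg. The SE printed is the size of the fold change (log2) over the root of its F statistic. The fit was also run on simulated counts with a single dispersion for all genes. These lacked the differences seen between the real libraries of a genotype, so they do not show its power here. DESeq2 1.42.0 and limma-voom (limma 3.58.1) were alternatives, as were other scalings and filters, each library left out, and the Y-linked share (Ddx3y, Uty, Kdm5d and Eif2s3y) as a covariate. Gene symbols of lists were matched by identifier to GENCODE M21 (42462 of 43346). Library pairs differed beyond sampling noise (chi-square per gene 18.1 or more). The members and lists were chosen with earlier results of these data known. Values in each library are given for members whose groups did not overlap and, per group, for the 4 with the smallest p and the 4 with the highest mean per kilobase, and for the 3 genes of smallest p in each pathway list. Any other member or gene with values in the text was picked once its values were known. The table of protein sequences was not used here, and 1 chain gene is not reported here.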

Additional observations from a re-analysis of the deposited data

How the results depend on the processing

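No member was called under any of the 13 alternatives of the test. Over all genes, DESeq2 called 1, and leaving out 1 library called from 0 (without D) to 15 (without E), beside 0 with all 4. The smallest adjusted p of a member was 0.347 without E, that of Itgb8 and Lama4, and 1.0 under each other alternative. The scalings and filters kept the direction of every member tested. With 1 library left out the group medians ran from 0.25 to 1.44 (leukocyte integrins), -0.35 to 0.070 (other integrins) and -0.21 to 0.085 (laminins). Given the Y-linked share as covariate they were -0.31, -0.32 and -0.18. The same covariate gave -0.032 for Itgam, -0.22 for Itgal, -0.89 for Itgax, -0.54 for Itgb2, -0.40 for Itgb7, -0.021 for Itga6, -0.59 for Itga1, 1.53 for Itgb6 and -0.23 for Lama1. With limma-voom Itga1 was -0.060 and Itgb6 0.047. With total counts and no scaling factor 1 laminin, Lama5, lay higher in both transgenic libraries. The cause was not tested. Leaving out 1 library also turned 25 members: Itga1 from -0.67 to 0.48, Itga10 from -0.19 to 0.14, Itga2 from -0.36 to 0.24, Itga2b from -1.11 to 0.65, Itga4 from -0.53 to 0.12, Itga5 from -0.51 to 0.033, Itga6 from -0.063 to 0.12, Itga7 from -0.072 to 0.047, Itga8 from -0.71 to 0.091, Itgad from -0.023 to 1.40, Itgb1 from -0.35 to 0.028, Itgb3 from -0.43 to 0.24, Itgb4 from -0.27 to 0.23, Itgb6 from -0.50 to 0.72, Itgb7 from -0.23 to 0.46, Lama1 from -0.35 to 0.31, Lama2 from -1.07 to 0.55, Lama3 from -0.15 to 0.46, Lama4 from -0.65 to 0.19, Lama5 from -0.00068 to 0.076, Lamb1 from -0.086 to 0.045, Lamb2 from -0.16 to 0.0088, Lamb3 from -0.20 to 0.54, Lamc1 from -0.26 to 0.12 and Lamc3 from -0.71 to 0.40. The difference in chain share, in percentage points, turned for Itgad from -1.52 to 0.117, Itgam from -2.20 to 1.85, Itgb3 from -0.0831 to 0.241, Itgb4 from -0.0830 to 0.478, Itgb6 from -0.431 to 0.690, Lama1 from -0.308 to 0.277, Lama2 from -2.08 to 1.28, Lama3 from -2.95 to 6.89, Lama4 from -4.81 to 1.42, Lama5 from -0.472 to 0.756, Lamb1 from -2.07 to 1.36, Lamb2 from -6.35 to 1.34 and Lamb3 from -2.68 to 8.41. No paired analysis was possible because no label links a transgenic library to a control library. Scarce chains such as Itgad and Itgb8 rest on few counts, which limits their precision.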

Other observations

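Genes related to the integrins and laminins but outside the naming rule, chosen after their values were seen, are given as values only. Itgae, the αE chain of lymphocytes lodged in epithelium, was at 1.32 CPM in B and 1.25 in E, against 0.744 in D and 0.833 in F (fitted log2 fold change 0.71 with SE 0.26), higher in both transgenic libraries, but scarce. Itgb2l, a relative of Itgb2, was at 0.834 CPM in B and 0.914 in E, against 0.955 in D and 0.622 in F, with no such order. Itgb1bp1, whose protein binds the β1 tail, was nearly level, at 32.6 CPM in B and 30.6 in E, against 32.7 in D and 31.7 in F. The netrin genes Ntn1 and Ntn4, which encode proteins related to laminin short arms, were at 56.3 CPM in B and 103 in E, against 73.3 in D and 112 in F (Ntn1), and at 34.7 CPM in B and 49.4 in E, against 40.8 in D and 56.5 in F (Ntn4). Both were lowest in B and highest in F, like the α8 chain gene Itga8.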
